A study of Mus musculus with 24 samples.

Results

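The Ifi200 family is a group of interferon-inducible genes that lie side by side on mouse chromosome 1. The 8 members followed here, Ifi203, Ifi204, Ifi205, Ifi207, Ifi209, Ifi211, Ifi213 and Mndal, were chosen by gene symbol out of 35770 named genes. Their proteins belong to the HIN-200 or PYHIN class, in which a HIN domain binds DNA and a pyrin domain, where present, joins other pyrin proteins. Members are nuclear or cytosolic, act in DNA sensing and in the control of transcription, and are well-known targets of type I and type II interferon in macrophages. Interferon receptors signal through JAK kinases to transcription factors that bind interferon-stimulated response elements near the start of their target genes.

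RNA came from bone marrow-derived macrophages (BMDMs) of C57BL/6 mice, grown with M-CSF. They spent 24 h in control media or in 75% conditioned media (CM) collected over 48 h from Lewis lung carcinoma (LL2) cells, a murine lung cancer line. The LL2 cells were wild type (WT), KEAP1 KO or NRF2 KO, so that the knockouts were in the cancer cells and all BMDMs carried the same genotype. Each medium was given with vehicle or with 100 nM CDDO-Me (bardoxolone methyl), a synthetic triterpenoid that activates the antioxidant factor NRF2. Groups are written as medium/treatment, such as media/vehicle or NRF2 KO CM/CDDO-Me BMDMs, which makes 8 groups (4 media, each with vehicle or CDDO-Me) of 3 libraries each. Neither the age of the marrow donors nor whether each knockout line was 1 clone is given in the sources used here, and nothing states that the 3 samples of a group came from separate animals, so p-values measure the spread between these samples only.

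Levels are TPM, the share of transcripts that a gene contributes to its library after scaling for transcript length, so genes can be compared within a library. The number of reads behind a value is unknown. In bulk RNA, fewer cells of a type and less RNA per cell cannot be told apart. Members share sequence, which makes the split of reads between them uncertain. Of the distinct 31-base stretches in its GENCODE transcripts, Ifi211 shared 75.2% with other family genes, Ifi209 47.1%, Ifi204 29.3%, Mndal 25.2%, Ifi205 22.6%, Ifi203 20.1%, Ifi213 19.4% and Ifi207 14.4%. The closest pair for Ifi211 was Ifi205, and all shared stretches of Ifi209 were shared with Ifi214, a relative at the same locus.

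On GRCm39 the 8 members span 466 kb of chromosome 1, from 173393846 to 173859456. All 13 protein-coding genes from Aim2, which lies before this span, to Ifi205 are members or relatives, and Ifi209 alone among the members is on the forward strand. RefSeq promoter windows, which run from 250 bases before to 50 bases after a gene's start on GRCm38.p6, were found for 7 of the 8 members. The core of an interferon-stimulated response element, searched on both strands as GAAA, any 2 bases and GAAA, was present for 6 of these 7 genes (Ifi203, Ifi205, Ifi207, Ifi211, Ifi213 and Mndal). Of all promoter windows, 3.44% held it, as did 3.99% of all genes with a window. The stretches below are shown because they are what the members' promoters share, and because the responsive and the poorly responsive members can be set side by side. Each runs 5′ to 3′ on the strand of its gene, with the 10 bases of the element in capitals or, for Ifi209, which has no match, the 10 bases closest to those of Ifi203.
Ifi203: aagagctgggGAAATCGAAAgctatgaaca
Mndal: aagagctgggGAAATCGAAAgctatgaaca
Ifi213: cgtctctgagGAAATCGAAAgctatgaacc
Ifi207: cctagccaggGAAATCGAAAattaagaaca
Ifi205: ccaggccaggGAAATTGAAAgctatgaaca
Ifi211: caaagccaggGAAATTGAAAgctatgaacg
Ifi209: aatctctgagTAAATCGAAAgagatgcact

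The printed stretches of Ifi203 and Mndal were identical over all 30 bases. Against the 10 bases of Ifi203, counted from 1 at the 5′ end, Ifi205 and Ifi211 differed by C6T, and the closest 10 bases of Ifi209 differed by G1T, which breaks the searched letters. The exact 10 bases in capitals for Ifi203 occurred in 16 of 32851 promoter windows. The relatives Ifi206, Ifi208 and Ifi214 at the locus have these 10 bases in their windows too. By exact match on GRCm39 the stretches lie at chr1:173770074-173770103 (Ifi203), chr1:173707770-173707799 (Mndal), chr1:173426892-173426921 (Ifi213), chr1:173569397-173569426 (Ifi207), chr1:173859436-173859465 (Ifi205), chr1:173740630-173740659 (Ifi211) and chr1:173458336-173458365 (Ifi209). The stretches of Ifi203, Mndal, Ifi211 and Ifi213 each have 2 exact matches on this chromosome, and the one at the gene is given. In GENCODE, those of Ifi207, Ifi209, Ifi211 and Ifi213 lie upstream of the annotated gene, those of Ifi203 and Mndal lie within its outermost bounds, and that of Ifi205 overlaps its first bases. A GAS-type element, TTCNNNGAA, was in none of the members' windows and in 8.3% of all windows. The core of an antioxidant response element, TGACNNNGC, was in the windows of Ifi205, Ifi207 and Ifi211 and in 12.4% of all windows. A match of letters is a description and not a measured binding site.

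Before the results, 2 libraries stand apart, replicate 3 of NRF2 KO CM/vehicle and replicate 3 of NRF2 KO CM/CDDO-Me. They had 15702 and 16299 genes above 0 TPM, against 17817 to 18993 in the other 22 libraries. Mitochondrially encoded transcripts made up 9.87% of NRF2 KO CM/vehicle replicate 3 and 4.74% of NRF2 KO CM/CDDO-Me replicate 3. Effects of CDDO-Me on members in NRF2 KO CM are therefore given with and without this pair. The macrophage markers Lyz2, Cd68, Csf1r and Adgre1 were abundant in all 24 libraries, with the lowest values at 12084, 631, 660 and 350 TPM. Of the T, NK and epithelial lists, Cd3e, Ncr1 and Epcam had highest values of 0.190, 0.218 and 0.272 TPM. Other genes of these lists reached more, with 0.759 TPM for Cd8a, 1.33 TPM for Klrb1c, 1.01 TPM for Krt8 and 1.70 TPM for Krt18. On the B cell list the highest value was 2.46 TPM, for Cd79b. Cd4, which is also on the T cell list, was higher, at 3.45 to 15.8 TPM. Cdh1, another epithelial gene, reached 5.19 TPM in KEAP1 KO CM/vehicle replicate 2. Markers of dendritic cells summed to 5.16 TPM or less and those of neutrophils to 71.2 TPM or less, with Ly6g at 0.989 TPM or less. Fibroblast markers, led by Col1a2, summed to between 167 and 2030 TPM, so the cultures held mesenchymal transcripts beside those of macrophages.

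CDDO-Me raised most of the family in BMDMs cultured with WT CM and with KEAP1 KO CM, while no member passed the test as higher in control media or with NRF2 KO CM in the fit used here. The summed level of the 8 members was 245 ± 13.4 TPM (mean ± SD, n = 3) in media/vehicle, 240 ± 18.7 TPM in WT CM/vehicle and 230 ± 18.6 TPM in KEAP1 KO CM/vehicle BMDMs. With CDDO-Me the sum was 1087 ± 179 TPM in WT CM and 996 ± 163 TPM in KEAP1 KO CM, but 154 ± 11.6 TPM in media and 173 ± 62.5 TPM in NRF2 KO CM. NRF2 KO CM/vehicle BMDMs were at 361 ± 193 TPM, made of 266, 235 and 583 TPM, the last being the library that stands apart. In order, the sums with KEAP1 KO CM/CDDO-Me and WT CM/CDDO-Me overlapped at the top, the 4 vehicle groups overlapped below them, and media/CDDO-Me was lower than every vehicle library. The NRF2 KO CM/CDDO-Me libraries, from 132 to 245 TPM, overlapped both media/CDDO-Me and the vehicle groups. Replicate 3 gave the highest sum in both top groups, at 1294 and 1183 TPM.

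**Figure D1:**
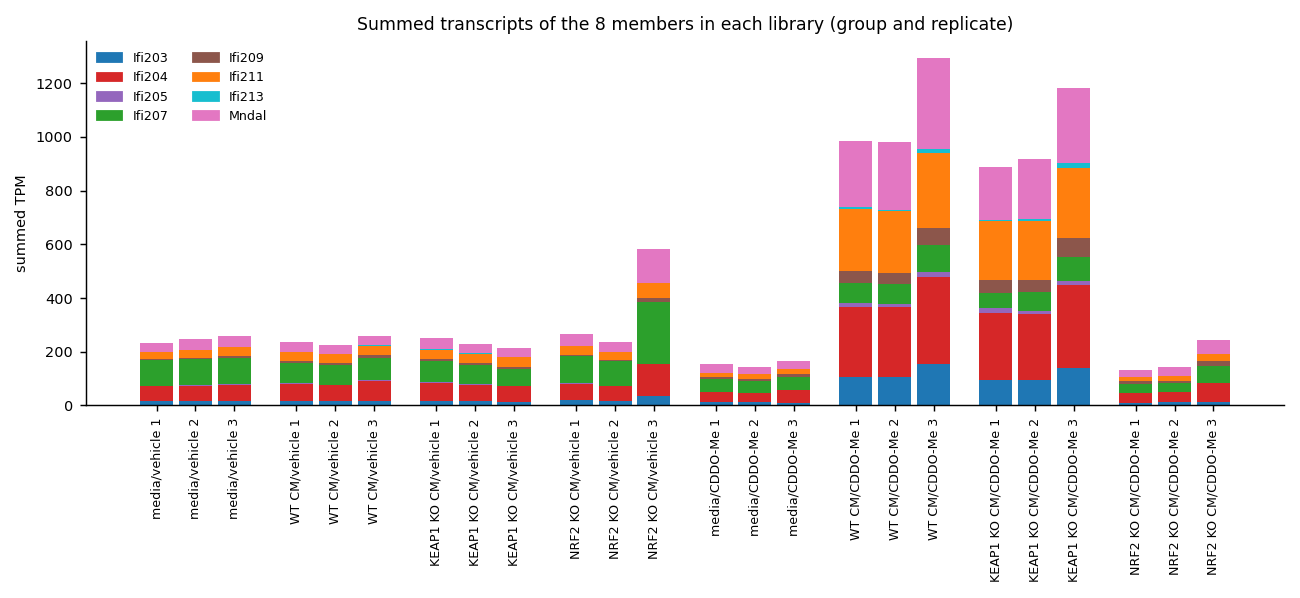
Summed level of the 8 members in each library, in TPM, as stacked bars with a colour for each gene. The 6 libraries that received CDDO-Me with KEAP1 KO CM or WT CM stand between 886 and 1294 TPM, above all 18 others, and the green band of Ifi207 does not grow with them.

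The first question is what CDDO-Me did to each member when WT CM was present. Ifi204, a mouse DNA sensor that acts upstream of STING, stood at 62.9, 61.3 and 74.8 TPM in WT CM/vehicle and at 260, 259 and 323 TPM in WT CM/CDDO-Me BMDMs. Every treated library was above every vehicle library, and the log2 difference was 2.19 ± 0.28 (SE; limma, adjusted p = 3.46e-06), a 4.23-fold ratio of mean TPM. Here and below, log2 differences are on the scale of log2(scaled TPM + 1), which understates the change of genes at low levels. Mndal, a nuclear HIN-200 protein, was at 37.1, 31.2 and 36.8 TPM with vehicle and at 247, 253 and 337 TPM with CDDO-Me. The groups were far apart, with a log2 difference of 3.08 ± 0.36 (limma, adjusted p = 1.23e-06) and a 7.97-fold ratio. Ifi203 went from 17.8, 15.6 and 17.6 TPM to 106, 106 and 155 TPM, again without overlap. Its log2 difference was 2.89 ± 0.25 (limma, adjusted p = 2.78e-08). Ifi211 was at 31.5, 34.5 and 36.2 TPM with vehicle and at 229, 229 and 281 TPM with CDDO-Me. It had the smallest adjusted p of the family, 1.03e-09 (limma), with a log2 difference of 2.95 ± 0.21.

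The other members were lower in abundance. Ifi209 rose from 7.50, 6.97 and 8.77 TPM to 44.9, 40.9 and 62.1 TPM, a log2 difference of 2.64 ± 0.40 (limma, adjusted p = 2.95e-05). Ifi205, which is known to raise expression of the inflammasome adaptor ASC, rose from 1.62, 1.14 and 1.11 TPM to 14.6, 11.3 and 20.4 TPM. No treated library overlapped a vehicle library for either gene. Ifi213 was below 1 TPM in all 3 WT CM/vehicle libraries (0.384, 0.368 and 0.560 TPM) and at 7.72, 6.02 and 15.6 TPM with CDDO-Me, with replicate 3 the highest. The log2 differences of Ifi205 and Ifi213 were 2.94 ± 0.25 (limma, adjusted p = 2.09e-08) and 2.93 ± 0.37 (limma, adjusted p = 3.61e-06). All 8 members passed the filter of more than 1 TPM in at least 3 libraries, but Ifi213 was above 1 TPM in only 3 of the 18 libraries outside the top pair of groups, and Ifi205 in 12 of 18. The remaining 6 members were above 1 TPM in all 24 libraries.

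Ifi207, a nuclear member that was the most abundant of the family in control media, did not follow this pattern. It was at 76.7, 72.7 and 84.5 TPM in WT CM/vehicle and at 76.2, 76.8 and 98.6 TPM in WT CM/CDDO-Me BMDMs. The groups overlapped, and the log2 difference was 0.23 with a 95% confidence interval of −0.40 to 0.85 (limma, adjusted p = 0.669). In all, 7 of the 8 members rose and none fell, beside 14.4% of the 13661 tested genes that were called higher and 13.4% that were called lower. The median log2 difference was 2.91 over the members and −0.01 over all genes tested. Among all tested genes ranked by their log2 difference, Mndal was number 134 and Ifi204 number 245, with the other 5 called members between them. Without scaling between libraries, 39.1% of the called genes were higher in place of 51.8%, the median of all genes tested was −0.12, and 7 members were still called higher. Without the pair of NRF2 KO CM libraries, the same number of members, 7, was called higher, and 21.3% of 13562 genes were.

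**Figure D2:**
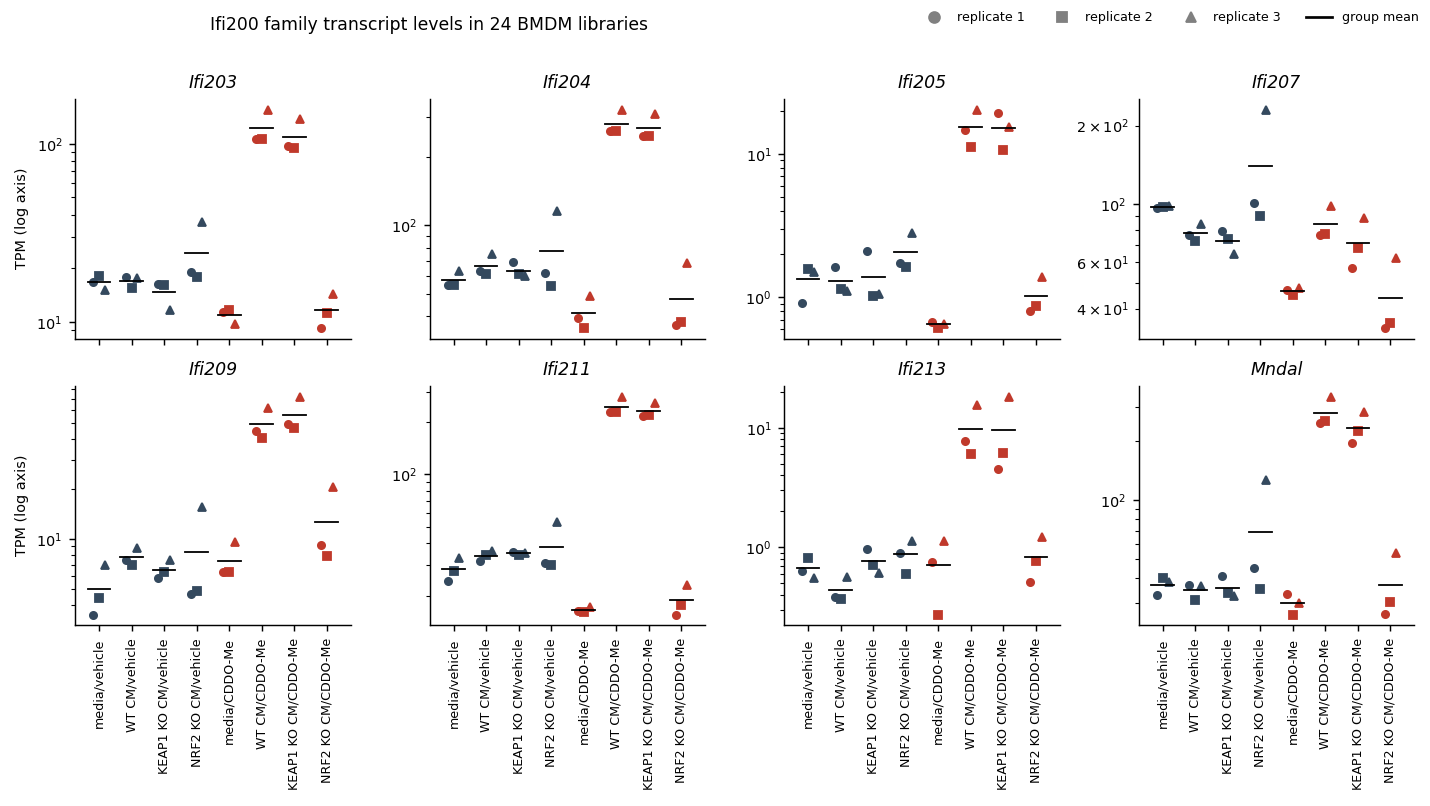
Level of each member in TPM (log axis) in the 24 libraries, with a panel for each gene, a point for each library shaped by replicate number, and a bar at the group mean; vehicle is dark and CDDO-Me is red. In 7 panels the KEAP1 KO CM/CDDO-Me and WT CM/CDDO-Me points lie above all others, and in the Ifi207 panel they lie between 57.2 and 98.6 TPM, among the vehicle libraries but for the lowest of them.

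With KEAP1 KO CM the response was of the same order. Ifi204 was at 68.9, 61.1 and 60.0 TPM in KEAP1 KO CM/vehicle and at 247, 248 and 310 TPM in KEAP1 KO CM/CDDO-Me BMDMs. Mndal was at 41.0, 33.7 and 32.5 TPM with vehicle and at 195, 226 and 282 TPM with CDDO-Me. Ifi211 rose from 35.9, 34.4 and 35.1 TPM to 218, 219 and 259 TPM. The groups did not overlap for any of these genes, and the log2 differences were 2.23, 2.84 and 2.85. Ifi209 had the largest log2 difference of the family here, 3.06 ± 0.40 (limma, adjusted p = 4.74e-06), from 5.77, 6.32 and 7.48 TPM to 49.3, 46.8 and 72.3 TPM. Ifi203, Ifi205 and Ifi213 had log2 differences of 2.98, 2.88 and 2.50. Ifi207 stood at 78.9, 74.0 and 64.5 TPM with vehicle and at 57.2, 68.3 and 88.4 TPM with CDDO-Me, with overlap and a log2 difference of 0.13 (95% confidence interval −0.50 to 0.75; limma, adjusted p = 0.818). Again 7 of 8 members rose and none fell, where 14.4% of all genes tested were called higher and 14.3% lower. Without scaling, 34.6% of the called genes were higher in place of 50.2%, the median of all genes tested was −0.17, and 7 members were called. Leaving out any 1 library kept the number of called members at 7 with either CM.

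In control media no member passed as higher with CDDO-Me in the fit used here. Ifi207 was at 97.3, 97.8 and 99.0 TPM in media/vehicle and at 47.0, 45.0 and 48.0 TPM in media/CDDO-Me BMDMs. The libraries within each group were close together and far from the other group, and the log2 difference was −1.04 ± 0.30 (limma, adjusted p = 0.0445). Ifi211 fell from 24.3, 27.9 and 33.1 TPM to 16.3, 16.2 and 17.1 TPM, with a log2 difference of −0.72 ± 0.21 (limma, adjusted p = 0.044). Ifi203, Ifi204 and Ifi205 had lower values in every treated library than in any vehicle library, with log2 differences of −0.55, −0.46 and −0.47 that did not pass the test. Ifi209 was at 3.49, 4.38 and 7.01 TPM with vehicle and at 6.29, 6.35 and 9.54 TPM with CDDO-Me, an uncalled log2 difference of 0.53 with overlap (limma, adjusted p = 0.656), which passed with array weights, at 0.48 (limma, adjusted p = 0.0449). Without the pair of NRF2 KO CM libraries, 3 members were lower in media, as Ifi203 passed too (−0.54, limma, adjusted p = 0.0423). In that fit 7.37% of genes were lower in media and 7.48% higher. With all 24 libraries, 2 of 8 members were lower and none higher, beside 2.80% of all genes tested that were lower and 3.22% that were higher. Leaving out any 1 of the 6 libraries left 0 members called, while without the pair of NRF2 KO CM libraries Ifi207 and Ifi211 had adjusted p of 6.81e-05 and 0.00044 (limma).

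BMDMs in NRF2 KO CM gave values near those in media. Ifi207 was at 102, 90.3 and 230 TPM in NRF2 KO CM/vehicle and at 33.8, 35.1 and 62.2 TPM in NRF2 KO CM/CDDO-Me BMDMs. The log2 difference was −1.56 ± 0.30 (limma, adjusted p = 0.00156) with the libraries that stand apart and −1.41 ± 0.17 without them (limma, adjusted p = 3.26e-05). Ifi211 fell by 0.91 on the log2 scale (limma, adjusted p = 0.00642), from 30.9, 30.1 and 52.9 TPM to 15.6, 17.8 and 23.0 TPM. Ifi203 fell by 0.93 (limma, adjusted p = 0.023), from 19.1, 17.9 and 36.6 TPM to 9.29, 11.3 and 14.3 TPM. These 3 genes were lower in every treated library, and they were called lower without the pair as well, at −0.80 for Ifi211 and −0.76 for Ifi203. Ifi205 was lower in every treated library too but was not called (−0.57, limma, adjusted p = 0.199). Without the pair it had −0.52 (limma, adjusted p = 0.328). Mndal, at 45.2, 35.4 and 127 TPM against 26.5, 30.2 and 53.8 TPM, overlapped between the groups and was not called (log2 difference −0.70, limma, adjusted p = 0.282; −0.45 without the pair, limma, adjusted p = 0.21). Leaving out 1 library took the value to between −1.10 (without vehicle replicate 2) and −0.10 (without vehicle replicate 3). Ifi209 went the other way, from 4.68, 4.85 and 15.5 TPM to 9.25, 7.87 and 20.7 TPM, with overlap and a log2 difference of 0.64 (limma, adjusted p = 0.406). It was 0.75 without the pair (limma, adjusted p = 0.125), and passed as higher, at 1.19 (limma, adjusted p = 0.0323), where the vehicle library of the pair alone was left out, and at 0.79 (limma, adjusted p = 0.00613) with array weights. In sum 3 of 8 members were lower and none higher, where 4.74% of all genes tested were lower and 4.87% higher. Ifi204 was not among them (−0.64, limma, adjusted p = 0.18), but a fit with a block for replicate number called it lower as well. Without the pair it was at the threshold and did not pass (−0.59, limma, adjusted p = 0.05). Ifi213 had −0.03 with the pair and −0.07 without it, uncalled in both. Without the pair 3 members were lower and 0 higher, beside 4.70% of genes in that fit that were lower and 4.85% higher. A fit on the 6 libraries of this comparison alone called 0 members.

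**Figure D3:**
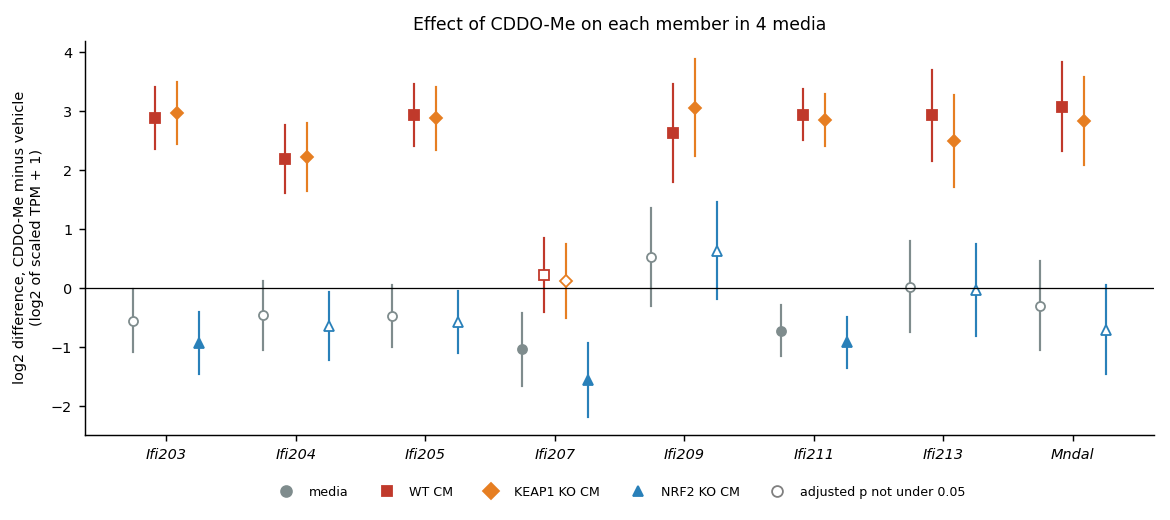
Log2 difference between CDDO-Me and vehicle for each member in each of 4 media, with 95% confidence intervals from limma; filled symbols passed an adjusted p of 0.05. The WT CM and KEAP1 KO CM symbols of 7 members lie between 2.19 and 3.08, those of Ifi207 lie near 0, and no filled symbol for media or NRF2 KO CM lies above 0.

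The next question is whether the effect of CDDO-Me depended on the medium, tested as a difference of differences on the log2 scale. Relative to control media, the effect in WT CM was larger by 3.67 ± 0.29 for Ifi211, 3.44 ± 0.36 for Ifi203 and 2.65 ± 0.39 for Ifi204 (limma, adjusted p = 1.74e-08, 7.05e-07 and 5.46e-05). All 8 members passed this test, beside 8.59% of all genes tested in that direction and 6.73% in the other (of the called genes 56.0% were larger with scaling between libraries and 46.2% without it). Ifi207 was among them at 1.26 ± 0.42 (limma, adjusted p = 0.0494), from a fall in media and an uncalled 0.23 in WT CM, and this call was lost when any 1 library of the 4 groups was left out. In KEAP1 KO CM 7 members passed against media, where 8.19% of all genes tested did so and 6.65% passed the other way (of the called genes 55.2% were larger with scaling between libraries and 40.5% without it), and Ifi207 did not (1.16, limma, adjusted p = 0.0735). Without the pair of NRF2 KO CM libraries all 8 passed, Ifi207 at 1.14 (limma, adjusted p = 0.000317). In that fit 14.0% of genes passed in this direction and 15.6% in the other. No member passed between NRF2 KO CM and media, where 0% of all genes tested were called in either direction (359 genes had an unadjusted p under 0.05) and 0 members had an unadjusted p under 0.05.

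KEAP1 KO CM and WT CM could not be separated by the family. Between these media, the drug's effect was different by 0.09 for Ifi203 (95% confidence interval −0.66 to 0.84), by −0.09 for Ifi211 (−0.70 to 0.52) and by −0.24 for Mndal (−1.30 to 0.82). No member passed (limma), none had an unadjusted p under 0.05, and 0% of all genes tested were called. In the direct comparison of KEAP1 KO CM/CDDO-Me with WT CM/CDDO-Me BMDMs the log2 differences of the members ran from −0.28 (Mndal) to 0.15 (Ifi209), with 0 members called beside 0.0439% of genes called higher and 0% lower. The intervals reach about 0.32 to 0.98 upwards and −0.55 to −1.03 downwards, so differences within these bounds cannot be told from none with 3 libraries a group. Between KEAP1 KO CM/vehicle and WT CM/vehicle BMDMs 0 members were called by limma and 0 had an unadjusted p under 0.05, beside 0% of all genes called higher and 0% lower. The log2 differences ran there from −0.28 for Ifi209 to 0.26 for Ifi213.

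CM without drug left the family near its level in media. WT CM/vehicle against media/vehicle BMDMs gave 0 members called by limma and 0 at an unadjusted p under 0.05, where 4.38% of all genes tested were higher and 2.85% lower. Of the genes called, 60.6% were higher with scaling between libraries and 48.2% without it. The log2 differences ran from −0.26 for Ifi207 to 0.65 for Ifi209. For Ifi207 every WT CM/vehicle library was below every media/vehicle library. KEAP1 KO CM/vehicle also gave 0 called members (4.87% of genes higher, 3.19% lower), again with 0 at an unadjusted p under 0.05. Ifi207 had the lowest difference there, −0.43, with every KEAP1 KO CM/vehicle library below every media/vehicle library, and it was called lower without the pair of NRF2 KO CM libraries (limma, adjusted p = 0.0386). For Ifi211, at an uncalled 0.31, every KEAP1 KO CM/vehicle library was above every media/vehicle library. For NRF2 KO CM/vehicle the 8 differences were all above 0, from 0.16 for Ifi213 to 0.66 for Mndal, with 0 members called and 0 at an unadjusted p under 0.05, where 0.00732% of genes were higher and 0% lower. Without replicate 3 the same differences ran from −0.07 to 0.19.

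With CDDO-Me present, WT CM set the family far above media. All 8 members were higher, beside 14.0% of all genes tested (12.8% were lower), with log2 differences of 3.99 ± 0.21 for Ifi211, 3.53 ± 0.25 for Ifi203 and 3.42 ± 0.25 for Ifi205. Ifi207 was among the 8, at 1.00 ± 0.30 (limma, adjusted p = 0.0164), through its low level in media/CDDO-Me BMDMs. KEAP1 KO CM gave 7 members higher and none lower (12.1% of genes higher, 10.5% lower), and Ifi207 had 0.73 (limma, adjusted p = 0.0907; adjusted p = 0.00067 without the pair of NRF2 KO CM libraries). Without scaling, 33.6% of called genes were higher in WT CM (52.3% with it) and 37.4% in KEAP1 KO CM (53.5% with it), at 8 and 7 members. NRF2 KO CM/CDDO-Me BMDMs had 0 members called against media/CDDO-Me, where 0.154% of genes were higher and 0.0366% lower, and 0 at an unadjusted p under 0.05. These comparisons use the same media/CDDO-Me and CM/CDDO-Me libraries as the ones above and are not separate evidence.

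The make-up of the family differed between groups. In media/vehicle BMDMs Ifi207 held 40.1% ± 1.87 (SD, n = 3) of the summed TPM, Ifi204 23.5% ± 1.05, Mndal 15.2% ± 1.09 and Ifi211 11.6% ± 1.17. In WT CM/CDDO-Me BMDMs Ifi204 and Mndal led with 25.9% ± 0.805 and 25.6% ± 0.519, followed by Ifi211 with 22.8% ± 0.883 and Ifi203 with 11.2% ± 0.707. The share of Ifi207 was 7.72% ± 0.0971 there and 7.12% ± 0.573 in KEAP1 KO CM/CDDO-Me BMDMs. The share of Ifi207 was also lower in groups without a high sum, at 30.4% ± 1.32 in media/CDDO-Me, 25.3% ± 0.414 in NRF2 KO CM/CDDO-Me and 32.5% ± 0.0538 in WT CM/vehicle BMDMs. The share of Ifi204 stayed between 22.1% and 27.6% in all 8 groups. Shares add to a fixed total, so a lower share of Ifi207 is not a lower level.

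Across the 24 libraries the log2 levels of 7 members followed each other. Pearson's r with the mean of the other members was 0.99 for Ifi204, Ifi203 and Mndal, 0.98 for Ifi211, 0.97 for Ifi205, 0.93 for Ifi213 and 0.90 for Ifi209, and was 0.39 for Ifi207. These libraries fall into 2 separate levels, so the values describe that split more than a graded relation. The 10 genes other than the 8 members with the most similar pattern, by r with the mean of the standardised members over 24 libraries, were Trim30d (0.989), Oasl2 (0.981), Sp110 (0.981), Ifih1 (0.977), Phf11d (0.977), Ifi203-ps (0.976), Arhgap15 (0.975), Herc6 (0.975), Trim30a (0.974) and Zc3hav1 (0.974). Ifi203-ps is a pseudogene at the locus that shared 47.7% of its 31-base stretches with family genes (42.9% with Ifi203). The split of reads between them is therefore uncertain. Outside the top pair of groups Ifi203-ps was above 1 TPM in 1 library. Ifih1 encodes the RNA sensor MDA5, Oasl2 an OAS-like protein, Herc6 an ISG15 ligase and Zc3hav1 the zinc finger antiviral protein, while Arhgap15 encodes a GTPase-activating protein for Rac. Oasl2 had mean levels of 15.3 TPM in media/vehicle and 118 TPM in WT CM/CDDO-Me BMDMs, and Sp110 had 33.2 and 136 TPM. The group means of Zc3hav1 lay in a narrow range, from 46.1 TPM in media/CDDO-Me to 64.2 TPM in WT CM/CDDO-Me BMDMs.

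Of the relatives at the locus, Aim2 was the most abundant. AIM2 is the cytosolic DNA sensor of the inflammasome, and none of its 31-base stretches was shared with the family. Aim2 was at 49.7, 43.6 and 62.3 TPM in WT CM/vehicle and at 76.5, 82.4 and 112 TPM in WT CM/CDDO-Me BMDMs. It rose by a log2 difference of 0.91 ± 0.28 (limma, adjusted p = 0.0195) in WT CM and of 0.82 (limma, adjusted p = 0.0348) in KEAP1 KO CM, below the differences of the 7 responding members, though the difference from them was not tested. Ifi206, Ifi208 and the pseudogene Ifi203-ps were under 2 TPM in all libraries outside the top pair of groups. Ifi206 reached 5.98, 5.55 and 11.1 TPM in WT CM/CDDO-Me BMDMs, and Ifi208 reached 1.40, 1.13 and 4.90 TPM. These 3 genes entered the test mostly or only through the groups in which they were high. Ifi214 and Ifi202b did not pass the filter.

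The upstream machinery split into genes that rose and genes that did not. In the DNA sensing list 4 of 10 genes rose in WT CM with CDDO-Me, with a median log2 difference of 0.29, and 4 of 10 in KEAP1 KO CM, where 14.4% of all genes tested rose in each medium. These were Sting1, Trex1, Zbp1 and Zdhhc1 in both media, of which the last 3 were named after their values were seen. Zbp1, a sensor of Z-form nucleic acids, rose from a mean of 21.9 to 346 TPM in WT CM, and Trex1, an exonuclease that degrades cytosolic DNA, from 34.4 to 150 TPM. Sting1, the adaptor downstream of DNA sensors, rose from a mean of 70.8 to 279 TPM in WT CM (log2 difference 2.10 ± 0.12, limma, adjusted p = 5.41e-11). It also rose in NRF2 KO CM, by 0.64 (limma, adjusted p = 0.00127), where no family member did (0.50 without the pair of libraries that stand apart; limma, adjusted p = 0.0057). Cgas, which makes the STING ligand, had a log2 difference of 0.12 in WT CM, and the kinase Tbk1 had 0.44, neither of which passed. The transcription factor Irf3 was not called, with means of 85.7 and 82.6 TPM. In the AIM2 inflammasome list, which includes Aim2, 6 of 8 genes rose in WT CM and 7 of 8 in KEAP1 KO CM. Casp1, the inflammasome protease, rose by a log2 difference of 1.64, while the adaptor Pycard had 0.34 and did not pass.

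Interferon signalling components did not move together. The interferon ligand genes Ifna1, Ifna2, Ifna4 and Ifna5 were listed at 0 TPM in all 24 libraries, and Ifnb1 and Ifng were above 0 in 1 library each, at 0.131 and 0.0637 TPM. The receptor genes Ifnar1, Ifnar2 and Ifngr1 had log2 differences of −0.16, 0.38 and −0.39 in WT CM with CDDO-Me and none passed. Stat2 and Irf9, which encode transcription factors of the pathway, rose by 1.80 and 0.83. Over the receptor and JAK-STAT list, 5 of 10 genes rose, beside 14.4% of all genes tested, with a median of 0.38. The kinase genes Jak2 (0.38) and Tyk2 (0.85) were among them. The list of interferon regulatory factors shares Irf9 with the one before. In WT CM 6 of 8 of its genes rose and 1 fell, beside 14.4% and 13.4% of all genes tested. Irf1 was at 3.69, Irf8 at 2.36 and Irf7 at 2.15. The gene that fell was Irf4, from a mean of 12.0 to 0.522 TPM. Jak2, Tyk2 and Irf4 were named after their values were seen. In media none of the 8 was called (limma), and 1 had an unadjusted p under 0.05.

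Known interferon targets rose as a group where the family rose. In WT CM with CDDO-Me 21 of 22 type I targets and 19 of 19 interferon gamma targets were higher, with medians of 2.39 and 4.82 against −0.01 over all genes tested. The type I target not called was Bst2, at 0.94 (limma, adjusted p = 0.119), named after its value was seen. In KEAP1 KO CM all 22 and all 19 were higher, and in each of these media 14.4% of all genes tested were. Some of these genes entered the test through the top groups alone, and among those above 1 TPM in at least 3 of the other 18 libraries 19 of 20 and 15 of 15 were higher in WT CM. The antiviral genes Isg15, Ifit1 and Mx1 had log2 differences of 3.52, 4.52 and 2.27, and Rsad2 went from a mean of 1.60 to 5.77 TPM. The interferon gamma targets Gbp2 and Ciita, a GTPase and the activator of MHC class II genes, had 8.67 and 4.95, and the chemokine Cxcl10 went from a mean of 0.0604 to 350 TPM. In control media 1 type I target was higher (Oas3, 1.14) and 1 lower (Rtp4, −1.17), near the 3.22% and 2.80% of all genes tested, and 0 interferon gamma targets were called by limma, with 3 at an unadjusted p under 0.05. Without the pair, 1 type I target was higher and 4 lower in media, and 3 interferon gamma targets were lower. In that fit 7.48% of genes were higher in media and 7.37% lower. In NRF2 KO CM 4 type I targets fell and none rose, beside 4.74% of all genes tested that were lower and 4.87% that were higher. The 4 were Rtp4 (−1.92), Ifit3 (−1.04), Ifi44 (−0.88) and Rsad2 (−0.72; limma, adjusted p = 0.0361). Without the pair, 3 type I targets fell, beside 4.70% of all genes in that fit. Of the 4 genes just named, Rtp4 passed there (−1.76, limma, adjusted p = 5e-04), while Ifit3, Ifi44 and Rsad2 had adjusted p of 0.182, 0.13 and 0.0739 (limma). Of the genes named here for media and NRF2 KO CM, all but Rsad2 were named after their values were seen.

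NRF2 targets, known to respond to CDDO-Me, were higher in 8 of 8 cases in control media, 7 of 8 in WT CM, 8 of 8 in KEAP1 KO CM and 8 of 8 in NRF2 KO CM (also without the pair), with medians of 2.38, 1.72, 2.36 and 2.80. The exception in WT CM was Gclc, a subunit of the enzyme that starts glutathione synthesis, at 0.68 (limma, adjusted p = 0.0681), named after its value was seen. Of all genes tested, 3.22% were called higher in control media, 14.4% in WT CM, 14.4% in KEAP1 KO CM and 4.87% in NRF2 KO CM. The effect of the drug in WT CM was called smaller than in media for 3 of the 8 NRF2 targets and larger for none. Among all genes tested it was smaller for 6.73% and larger for 8.59%. No test compared the lists with each other.

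**Figure D4:**
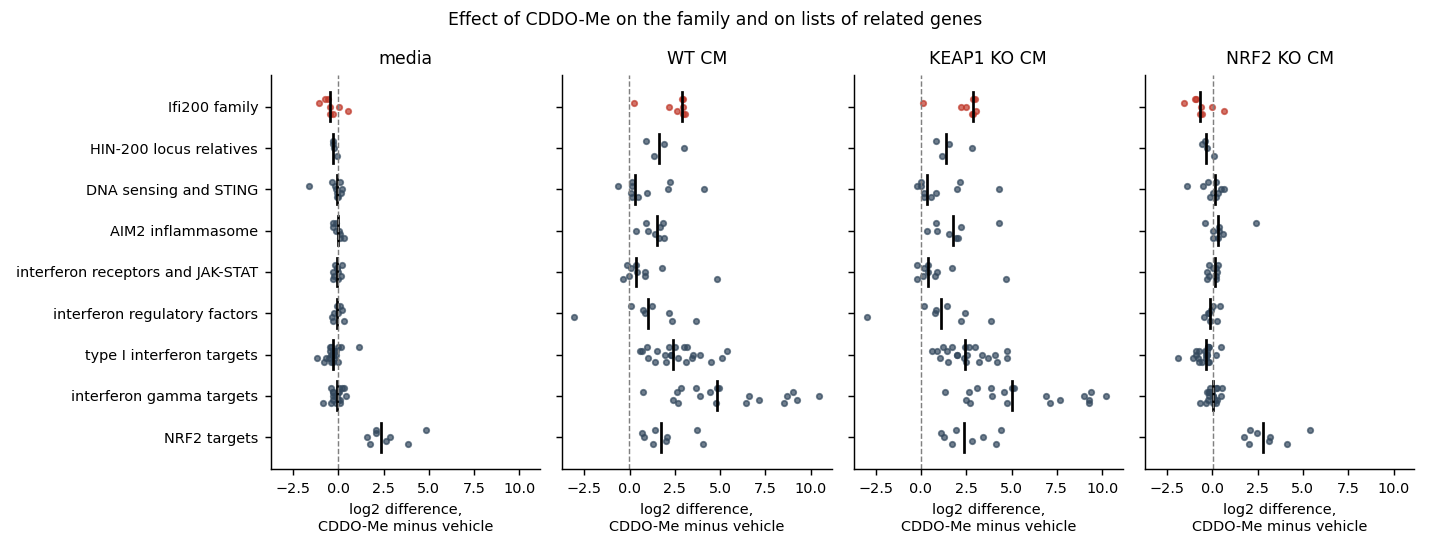
Log2 difference between CDDO-Me and vehicle for every tested gene of each list (points), with the list's median (black bar) and the median of all 13661 tested genes (dashed line), in each of 4 media. In WT CM and KEAP1 KO CM the family medians are 2.91 and 2.85, and the median of the NRF2 targets lies at 1.72 or more in every panel.

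Markers of other cell types and library measures were compared with the result. The summed fibroblast markers were 762, 1105 and 528 TPM in WT CM/vehicle and 373, 580 and 206 TPM in WT CM/CDDO-Me BMDMs. In KEAP1 KO CM they were 1206, 1449 and 753 TPM with vehicle and 657, 782 and 167 TPM with CDDO-Me. In both media 1 of 8 of these markers, Pdgfra, was called lower and none higher, a share near the 13.4% and 14.3% of all genes tested that were lower there, and replicate 3, where the family was highest, had the lowest sum. In media/CDDO-Me BMDMs, where the family did not rise, they were 1152, 1573 and 532 TPM. Neutrophil markers, led by S100a8, summed to 32.8 to 71.2 TPM in the 6 libraries where the family was high and to 10.1 to 64.1 TPM in the other 18, and the dendritic cell marker sum was 2.47 to 5.16 TPM against 0.743 to 1.71 TPM. The share of mitochondrially encoded transcripts was 1.54% to 2.08% in these 6 libraries and 2.44% to 9.87% in the other 18. Of the neutrophil and dendritic cell lists S100a8 and Xcr1 were called higher with CDDO-Me in WT CM, at log2 differences of 2.19 and 2.33. Xcr1 entered the test only through the groups in which it was high. S100a8 was also called higher in NRF2 KO CM, at 1.79 (1.59 without the pair; limma, adjusted p = 0.0313), where no member was, and in control media without the pair (1.12, limma, adjusted p = 0.0478; 1.11 and 0.142 with it). Of 8 macrophage markers 2 were higher and 1 lower with CDDO-Me in both media, Fcgr1 at 3.35 in WT CM and 3.50 in KEAP1 KO CM, Mertk at 0.93 and 0.90, and Cd68 at −1.41 and −1.31. In control media Itgam was higher (0.68) and Fcgr1 and Cd14 lower (−1.17 and −1.63), and in NRF2 KO CM Itgam and Lyz2 were higher (0.61 and 0.52) and Fcgr1 and Cd68 lower (−1.10 and −0.61). The epithelial gene Cdh1 was called lower in WT CM, at −2.16, and in KEAP1 KO CM, at −2.40. It entered the test only through WT CM/vehicle and KEAP1 KO CM/vehicle BMDMs, the groups in which it was high. Cd4 was called lower with CDDO-Me in media and in NRF2 KO CM, at −1.12 and −1.17 (−1.18 in NRF2 KO CM without the pair), where some members were lower too, and was not called in WT CM (−0.16). These markers were named after their values were seen. The part of these measures in the result was not tested. The epithelial marker sum was 3.11 to 4.29 TPM in WT CM/vehicle and 4.69 to 7.23 TPM in KEAP1 KO CM/vehicle, 0.421 TPM or less in all libraries of media and NRF2 KO CM, 0.335 TPM or less in WT CM/CDDO-Me and 1.83 TPM or less in KEAP1 KO CM/CDDO-Me BMDMs. In WT CM and KEAP1 KO CM it was thus lower in the libraries where the family was higher.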

How the data were processed

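The 24 libraries were poly-A RNA from BMDMs of 8 groups. Per the study's methods, the authors pseudo-aligned paired-end reads with Kallisto to the GRCm39 cDNA, filtered low counts, scaled by TMM and tested with limma. The deposited table holds TPM per gene symbol, since every library sums to the same fixed total, although its name speaks of counts; read depth is therefore unknown, and no counting intervals are given. One line without a symbol (0.0199% to 0.0635% of TPM) was left out.

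TPM were divided by TMM factors computed here (trim of 30% on ratios and 5% on levels, no weights), and log2(scaled TPM + 1) was fitted with limma 3.58.1 (R 4.3.3, trend) as 8 group means, with 16 residual degrees of freedom. Genes above 1 TPM in at least 3 libraries, 13661, were tested in 16 comparisons. Tests were two-sided, p-values were adjusted by Benjamini-Hochberg over all genes within each comparison, and the threshold was 0.05. A permutation of 3 against 3 libraries cannot go below p = 0.1, so no single-gene permutation test is given. Groups of 3 libraries can also separate fully without an effect, and the share of all genes tested without overlap was not counted. TPM printed for a library are as deposited, and intervals are 95%. The scripts were tested on simulated data. Figures used matplotlib 3.10.9.

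The members and gene lists were chosen with earlier results of these data known. Named genes are the 8 members, their relatives at the locus, 23 genes of the pathway and the 10 genes most similar in pattern; others are marked as named after their values were seen. Some genes of the lists are not reported here. Positions are from GENCODE on GRCm39, and promoter sequences from RefSeq on GRCm38.p6, with 7 of 8 members matched. Alternatives were RLE factors or no scaling, no filter or a mean TPM of at least 5, pseudocounts of 0.1 and 5, no trend, array weights, a replicate block, the compared groups only, leaving out each library, and leaving out both NRF2 KO CM replicate 3 libraries.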

Additional observations from a re-analysis of the deposited data

Results flagged for a closer look

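The effect of CDDO-Me on the family was not the same in every medium, by a test of the difference between log2 effects in limma. Set against control media, the effect in WT CM was larger by 3.67 for Ifi211, 3.44 for Ifi203, 3.41 for Ifi205, 3.37 for Mndal and 2.90 for Ifi213 (limma, adjusted p = 1.74e-08, 7.05e-07, 7.39e-07, 6.69e-05 and 0.000496). It was larger by 2.65 for the DNA sensor gene Ifi204, by 2.11 for Ifi209 and by 1.26 for Ifi207 (limma, adjusted p = 5.46e-05, 0.0131 and 0.0494). With CDDO-Me 7 members were called higher in WT CM by limma, beside 14.4% of all genes tested. For Ifi207 the groups overlapped in WT CM, and every CDDO-Me library was lower in media.

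Set against control media, the effect in KEAP1 KO CM was larger by 3.57 for Ifi211, 3.52 for Ifi203, 3.35 for Ifi205, 3.13 for Mndal, 2.69 for Ifi204, 2.54 for Ifi209 and 2.47 for Ifi213 (limma, adjusted p = 2.58e-08, 5.41e-07, 1e-06, 0.000167, 5.21e-05, 0.00323 and 0.00233). Both sets use the same 6 media libraries, so they are not independent of each other.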

How the results depend on the processing

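The 7 members called higher with CDDO-Me in WT CM and in KEAP1 KO CM stayed at 7 under each alternative but one, the filter on a mean TPM of at least 5, which drops Ifi205 and Ifi213 and leaves 5 of 6 tested. Read depth is unknown, so the precision of members near 1 TPM is too. The counts of members called moved elsewhere. With CDDO-Me in media, 2 became 0 with no filter, 1 with a pseudocount of 5, 5 with array weights (1 of them, Ifi209, higher) and 3 without both NRF2 KO CM replicate 3 libraries, and in NRF2 KO CM 3 became 6 with array weights (Ifi209 higher) and 0 with the compared groups only. Without drug against media, 0 became 2 with array weights for WT CM. For KEAP1 KO CM it became 2 with array weights, 1 with the compared groups only and 1 without both NRF2 KO CM replicate 3 libraries. NRF2 KO CM/CDDO-Me against media/CDDO-Me went from 0 to 1 with array weights. Leaving out each library in turn (an arm then holds 2 libraries) gave 0 to 0 members for CDDO-Me in media, 2 to 4 in NRF2 KO CM (2 without CDDO-Me replicate 1 or 2, 4 without CDDO-Me replicate 3), 7 to 8 for WT CM against media with CDDO-Me (7 without media/CDDO-Me replicate 2 or WT CM/CDDO-Me replicate 3) and 7 to 7 for the difference of effects between WT CM and media, where the call of Ifi207 was lost. That call was also lost with RLE scaling, no filter, either pseudocount and no trend, and its adjusted p ran from 1.57e-06 (array weights) to 0.095 (no filter) over these settings (limma). The cause was not tested.

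Array weights raised the number of genes called in all 16 comparisons, for CDDO-Me from 822 to 3523 in media, 3809 to 7127 in WT CM, 3932 to 7006 in KEAP1 KO CM and 1313 to 2782 in NRF2 KO CM. For CM against media they moved it from 988 to 4114 (WT), 1101 to 5012 (KEAP1 KO) and 1 to 4 (NRF2 KO) with vehicle, and from 3660 to 7525, 3094 to 6081 and 26 to 754 with CDDO-Me. KEAP1 KO CM against WT CM went from 0 to 975 with vehicle and from 6 to 262 with CDDO-Me, and the differences of effects from 2093 to 5405, 2027 to 5327, 0 to 7 and 0 to 26. Without both NRF2 KO CM replicate 3 libraries CDDO-Me called 2014 genes in media, 5843 in WT CM and 6109 in KEAP1 KO CM. Under the same setting the effect differed from that in media for 3885 genes in WT CM and 4011 in KEAP1 KO CM. Against media, WT CM then called 2590 genes with vehicle and 5937 with CDDO-Me, KEAP1 KO CM 2884 and 5359, and NRF2 KO CM/CDDO-Me 13, while KEAP1 KO CM/CDDO-Me against the same treatment in WT CM called 50. With the compared groups only, CDDO-Me called 1601 genes in media and 143 in NRF2 KO CM, and the effect differed from media for 3640 genes in WT CM and 3434 in KEAP1 KO CM. Against media with vehicle that setting called 2235 genes for KEAP1 KO CM, 2076 for WT CM and 0 for NRF2 KO CM, and it took the counts of 26 and 6 to 0. The filter, pseudocount, trend and scaling settings moved a count by over 1.5 times in comparisons with 26 calls or fewer, to between 0 and 22. Leaving out 1 library took CDDO-Me in media to between 523 and 604, WT CM against media with vehicle to between 617 and 733, KEAP1 KO CM to between 705 and 916, NRF2 KO CM against media with CDDO-Me to between 4 and 15, and KEAP1 KO CM against WT CM with CDDO-Me to between 1 and 21.

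Of 23 signalling genes named, the 16 called with CDDO-Me in WT CM kept call and direction in each alternative that tested them, and in KEAP1 KO CM 15 of 16 did with no scaling or no filter. Of the 2 called in NRF2 KO CM, Sting1 and Rsad2, 1 was kept with no filter, with a pseudocount of 5 and without both replicate 3 libraries. Type I targets called higher in WT CM ranged from 17 of 18 (mean TPM of at least 5) to 22 of 22, and interferon gamma targets were all higher.

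Some differences of members that were not called changed sign, from main values of up to 0.50 (Ifi209 in NRF2 KO CM against media with vehicle). For CDDO-Me against vehicle, Ifi213 in media was −0.03 with a pseudocount of 0.1 and −0.02 with array weights, and Ifi207 in KEAP1 KO CM was −0.04 without scaling and −0.09 with array weights. Against media with vehicle, Ifi205 in WT CM was −0.02 without scaling and Mndal 0.02 with array weights, and Mndal in KEAP1 KO CM was 0.09 with array weights. In NRF2 KO CM with vehicle, Ifi204, Ifi207 and Ifi209 were −0.02, −0.07 and −0.04 without both replicate 3 libraries, and Ifi207 −0.02 with array weights. In NRF2 KO CM with CDDO-Me, array weights gave −0.17 for Ifi203, −0.07 for Ifi204, 0 for Ifi211, −0.06 for Ifi213 and −0.16 for Mndal, and leaving out both replicate 3 libraries gave −0.11, −0.17, −0.02, −0.06 and −0.10. Between KEAP1 KO CM and WT CM with vehicle, Ifi204 was 0.01 with array weights, Ifi205 −0.02 with a pseudocount of 0.1 and 0 with the compared groups only, Ifi211 0.05 without scaling and 0.07 with array weights, and Mndal 0.02 and 0.07 under the same settings. With CDDO-Me Ifi205 was 0.04 there with array weights. The difference of effects between these media was −0.02 for Ifi203 with array weights and, for Ifi204, 0 without scaling and −0.13 with array weights.

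Leaving out 1 library at a time gave these ranges for members that changed sign. With CDDO-Me, Ifi213 ranged from −0.15 to 0.23 in media and −0.19 to 0.11 in NRF2 KO CM, and Ifi207 from −0.08 to 0.26 in KEAP1 KO CM. Against media with vehicle, WT CM gave −0.12 to 0.09 for Ifi205 and −0.10 to 0.08 for Mndal, KEAP1 KO CM gave −0.18 to 0.14 for Ifi205, 0 to 0.14 for Ifi213 and −0.16 to 0 for Mndal, and NRF2 KO CM gave −0.02 to 0.60 for Ifi204, −0.07 to 0.68 for Ifi207 and −0.04 to 0.78 for Ifi209. Against media with CDDO-Me, NRF2 KO CM gave −0.12 to 0.22 for Ifi203, −0.17 to 0.34 for Ifi204, −0.46 to 0.03 for Ifi207, −0.02 to 0.30 for Ifi211, −0.10 to 0.29 for Ifi213 and −0.10 to 0.46 for Mndal. KEAP1 KO CM against WT CM gave −0.20 to 0.12 for Ifi205, −0.08 to 0.04 for Ifi211 and −0.15 to 0.02 for Mndal with vehicle, and −0.40 to 0.01 for Ifi203, −0.24 to 0.02 for Ifi204, −0.27 to 0.19 for Ifi205, −0.08 to 0.34 for Ifi209 and −0.75 to 0.21 for Ifi213 with CDDO-Me. The difference of effects between NRF2 KO CM and media gave −0.52 to 0.19 for Ifi204, −0.25 to 0.10 for Ifi205, −0.33 to 0.65 for Ifi209, −0.39 to 0.10 for Ifi211, −0.26 to 0.13 for Ifi213 and −0.81 to 0.18 for Mndal. Between KEAP1 KO CM and WT CM it gave −0.12 to 0.28 for Ifi203, −0.11 to 0.15 for Ifi204, −0.27 to 0.19 for Ifi205, −0.30 to 0.05 for Ifi207 and −0.21 to 0.02 for Ifi211.

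Libraries of different groups share replicate numbers, and nothing states that a number marks a shared animal or day. Same-number deviations from the group means had r above 0.1 in 71 of 84 pairs (mean 0.256, lowest 0.0231, against a mean of −0.121 for different numbers). For 22 of 24 libraries the mean r with libraries of other groups was highest for their own number. This is a hint from the data and not the design. With the replicate block, CDDO-Me called 2 members in media, 7 in WT CM, 7 in KEAP1 KO CM and 4 in NRF2 KO CM, where Ifi204 was added. The block called 8 members in WT CM and 8 in KEAP1 KO CM against media with CDDO-Me, and 8 and 8 for the differences of effects, Ifi207 being added in KEAP1 KO CM. Of all genes called there with the block, 49.2% and 49.5% were higher, and 50.5% and 49.1% had a larger effect. For CDDO-Me in WT CM and KEAP1 KO CM, 50.1% and 48.4% of called genes were higher. Without the block, 14.0% and 12.1% of all genes tested were higher against media, and 8.59% and 8.19% had a larger effect. How many genes the block called in these comparisons is not given, so its member counts lack a background from the same fit. Genes called with the block rose to 1464 in media and 1986 in NRF2 KO CM for CDDO-Me, to 1743 and 1784 for WT CM and KEAP1 KO CM against media with vehicle, from 26 to 160 for NRF2 KO CM against media with CDDO-Me, and from 6 to 37 for KEAP1 KO CM against WT CM with CDDO-Me.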
